A study of Mus musculus with 9 samples.

Results

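The 27 genes described here make, move, sense and anchor the action of GABA, the main inhibitory transmitter of the cortex. They were the rows of the deposited count table, 55335 in all, that carry the symbols of GABA synthesis, transport, receptor and inhibitory synapse genes, and each of the 27 symbols occurred on 1 row and passed the filter on low counts. The samples were whole pieces of prelimbic cortex, a region of the medial prefrontal cortex, taken from 9 mice at day 14 after the operation, and total RNA was sequenced in bulk. R-HNK mice (labelled SNI/R-HNK, n = 3) had spared nerve injury and received R-HNK, a hydroxynorketamine and metabolite of ketamine, at 10 mg/kg. Injured saline mice (labelled SNI/saline, n = 3) had spared nerve injury, in which branches of the sciatic nerve are cut and another is left intact, and received saline. Sham mice (labelled Sham/saline, n = 3) had the control operation and saline. All 3 groups thus had surgery, and the design names 3 mice in each. Strain, sex, age and the time of dosing were not given in the sources used here.

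As background, glutamate decarboxylases make GABA from glutamate, a vesicular transporter loads it, and uptake carriers and a transaminase clear and break it down. GABA acts on GABA-A receptors, which are chloride channels built from alpha, beta and gamma or delta subunits, and on GABA-B receptors, which act through G proteins. Gephyrin, adhesion proteins and small auxiliary proteins hold GABA-A receptors at the inhibitory synapse, and the cell's chloride carriers set which way chloride flows when they open. In the cortex GABA is released by local interneurons. The striatum, beneath the cortex, consists mostly of GABA-releasing medium spiny neurons.

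Kctd12, an auxiliary subunit of GABA-B receptors, and Slc6a11, the GABA transporter GAT3 of astrocytes, were the 2 members that passed the threshold given below. Both fell in injured saline mice relative to sham mice, where 1.07% of all 21765 genes tested passed, 0.515% higher and 0.556% lower. Other members passed in some other settings of the fit. Of the 9 fits that left out 1 library, Kctd12 passed in 9 and Slc6a11 in 4. Their promoter regions are shown with those of Gad1, Gad2 and Slc32a1, the genes of GABA synthesis and vesicle loading, whose levels are given first. Each line holds the 250 bases before the RefSeq transcription start on GRCm38.p6, read 5′ to 3′ on the gene's strand. Capitals mark the CREB half-site TGACG, the TATA box TATAAA and the GC box GGGGCGGGG, on either strand.
Kctd12, chr14:102982638-102982887, minus strand: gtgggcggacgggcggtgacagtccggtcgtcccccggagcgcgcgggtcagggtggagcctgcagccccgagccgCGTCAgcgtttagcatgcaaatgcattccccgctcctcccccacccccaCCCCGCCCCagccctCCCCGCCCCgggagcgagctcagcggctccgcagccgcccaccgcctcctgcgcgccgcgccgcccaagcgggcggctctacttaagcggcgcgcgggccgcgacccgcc
Slc6a11, chr6:114130991-114131240, plus strand: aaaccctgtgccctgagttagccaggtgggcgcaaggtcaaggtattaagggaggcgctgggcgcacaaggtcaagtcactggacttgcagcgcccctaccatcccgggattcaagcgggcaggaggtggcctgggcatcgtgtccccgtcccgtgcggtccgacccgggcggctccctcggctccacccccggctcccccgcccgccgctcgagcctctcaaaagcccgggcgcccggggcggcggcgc
Gad1, chr2:70561879-70562128, plus strand: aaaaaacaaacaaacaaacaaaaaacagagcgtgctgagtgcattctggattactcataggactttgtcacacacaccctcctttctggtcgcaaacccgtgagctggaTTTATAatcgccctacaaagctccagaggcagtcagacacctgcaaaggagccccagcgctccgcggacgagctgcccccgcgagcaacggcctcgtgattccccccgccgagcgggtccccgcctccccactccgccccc
Gad2, chr2:22622077-22622326, plus strand: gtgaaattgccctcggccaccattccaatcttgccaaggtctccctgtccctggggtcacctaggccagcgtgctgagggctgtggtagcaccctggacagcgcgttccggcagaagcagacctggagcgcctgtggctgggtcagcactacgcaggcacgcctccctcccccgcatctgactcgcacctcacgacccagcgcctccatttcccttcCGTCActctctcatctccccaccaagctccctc
Slc32a1, chr2:158610508-158610757, plus strand: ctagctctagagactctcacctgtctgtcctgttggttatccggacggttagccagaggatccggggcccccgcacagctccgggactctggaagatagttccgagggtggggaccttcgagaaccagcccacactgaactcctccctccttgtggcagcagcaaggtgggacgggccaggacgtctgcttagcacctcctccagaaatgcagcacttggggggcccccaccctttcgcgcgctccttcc
The Kctd12 region held a CREB half-site and GC boxes, the Gad2 region a CREB half-site and the Gad1 region a TATA box. In the GENCODE annotation Gad1 starts at 70553072, so its region lies inside the annotated gene. Gad2 starts at 22622205 there, within its region, and its half-site lies past that start. Neither the Slc6a11 nor the Slc32a1 region held these letters. Over all 32851 RefSeq promoter windows of this length, 17.8% held the half-site, 12.4% the TATA box and 10.4% the GC box. The table had windows for 22 of the 27 members. Among these the half-site occurred in 3, the TATA box in 3 and the GC box in 4, and the full CREB site TGACGTCA, which contains the half-site, in none. G and C made up 77.6% of the Kctd12 region and 58.0% of the Gad1 region, against a median of 52.4% over all windows.

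Library totals ran from 53624337 to 73586375 counts. Levels are CPM, that is counts relative to TMM-scaled library totals, fold changes are log2 values ± standard error (SE), and a gene passed at an adjusted p under 0.05 in edgeR's quasi-likelihood test over all genes. The libraries were not alike in tissue. Summed over 15 markers of striatal medium spiny neurons, the level was 724 and 1019 CPM in R-HNK replicates 1 and 3 and 1600.3 and 1516 CPM in sham replicates 2 and 3, and 280.3 to 322 CPM in the other 5 libraries, among them every injured saline library. Values are therefore also given from a fit with the striatal marker score added, here called the striatal covariate, and from a fit that left these 4 libraries out. The second setting leaves 3 injured saline libraries, 1 R-HNK library and 1 sham library, and the lone libraries are assumed to vary like the injured saline ones. The summed level of 8 oligodendrocyte and myelin markers was also highest in the same 4 libraries. It was 4903 and 6603 CPM in R-HNK replicates 1 and 3, 6177 and 6829 CPM in sham replicates 2 and 3 and 3263 to 4613 CPM in the others. The 2 settings therefore do not separate striatal neurons from myelin, and the part of myelin was not tested. Slc17a7, the vesicular glutamate transporter of cortical excitatory neurons, was abundant throughout, at 1862, 1881 and 1780.2 CPM in R-HNK mice, 2089, 2060.4 and 1992 CPM in injured saline mice and 1936, 1535 and 1477 CPM in sham mice. In bulk tissue, fewer cells of a type and less RNA per cell cannot be told apart.

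Gad1, which encodes GAD67, the decarboxylase that makes most GABA in the brain, measured 256, 348 and 275 CPM in R-HNK mice, 267, 263 and 293 CPM in injured saline mice and 345, 387 and 338 CPM in sham mice. All 3 injured saline libraries lay below all 3 sham libraries, while R-HNK replicate 2 reached the sham range. The log2 fold change of injured saline against sham mice was -0.38 ± 0.10 and did not pass (adjusted p = 0.0979), though it passed in DESeq2 (adjusted p = 0.0173). It was -0.47 with the striatal covariate and -0.33 with the 4 libraries left out, and neither passed. Without R-HNK replicate 2 it passed (adjusted p = 0.028). For R-HNK against injured saline mice it was 0.10 ± 0.10 (adjusted p = 0.855), and for R-HNK against sham mice -0.28 ± 0.10 (adjusted p = 1). The R-HNK against injured saline value took the opposite sign without R-HNK replicate 2 (-0.05), and the R-HNK against sham value did so with the 4 libraries left out (0.01). Gad1 lies on chromosome 2 from 70553072 to 70602014 (GRCm38).

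Gad2, which encodes GAD65, the decarboxylase found mainly at nerve terminals, measured 175, 163 and 182 CPM in R-HNK mice, 142, 139 and 160.0 CPM in injured saline mice and 154, 261 and 260.2 CPM in sham mice. Sham replicates 2 and 3 stood far above sham replicate 1, which lay within the injured saline range. The log2 fold change of injured saline against sham mice was -0.62 ± 0.18 (adjusted p = 0.143), the most negative of the members after Kctd12, and it did not pass. It was -0.22 with the striatal covariate, and -0.06 with the 4 libraries left out, with adjusted p = 0.657 and 0.932. Without sham replicate 1 it was -0.82 and passed (adjusted p = 0.000235). R-HNK against injured saline mice gave 0.24 ± 0.18 (adjusted p = 0.785), with no overlap between the groups, and R-HNK against sham mice gave -0.38 ± 0.18 (adjusted p = 1). The first of these took the opposite sign with the striatal covariate (-0.01). The other did so with the 4 libraries left out (0.08), and passed without sham replicate 1 (-0.58, adjusted p = 0.0338).

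Slc32a1, the vesicular transporter that loads GABA and glycine, had the same high libraries. It measured 108, 110.0 and 136 CPM in R-HNK mice, 102, 94.1 and 98.6 CPM in injured saline mice and 113, 159.9 and 162 CPM in sham mice. Sham replicates 2 and 3 and R-HNK replicate 3 were the 3 highest, and all injured saline libraries lay below all others. The log2 fold change of injured saline against sham mice was -0.56 ± 0.13 (adjusted p = 0.0737), -0.27 with the striatal covariate and -0.19 when the 4 libraries were left out. R-HNK against injured saline mice gave 0.27 ± 0.13 (adjusted p = 0.689) and R-HNK against sham mice -0.30 ± 0.13 (adjusted p = 1). With the striatal covariate these 2 values were 0.07 and -0.20, and with the 4 libraries left out 0.16 and -0.04, in the same order. An antisense gene, Gm14205, covers 24.9% of its exon bases, and the sources used here do not say whether counting used strand.

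**Figure D1:**
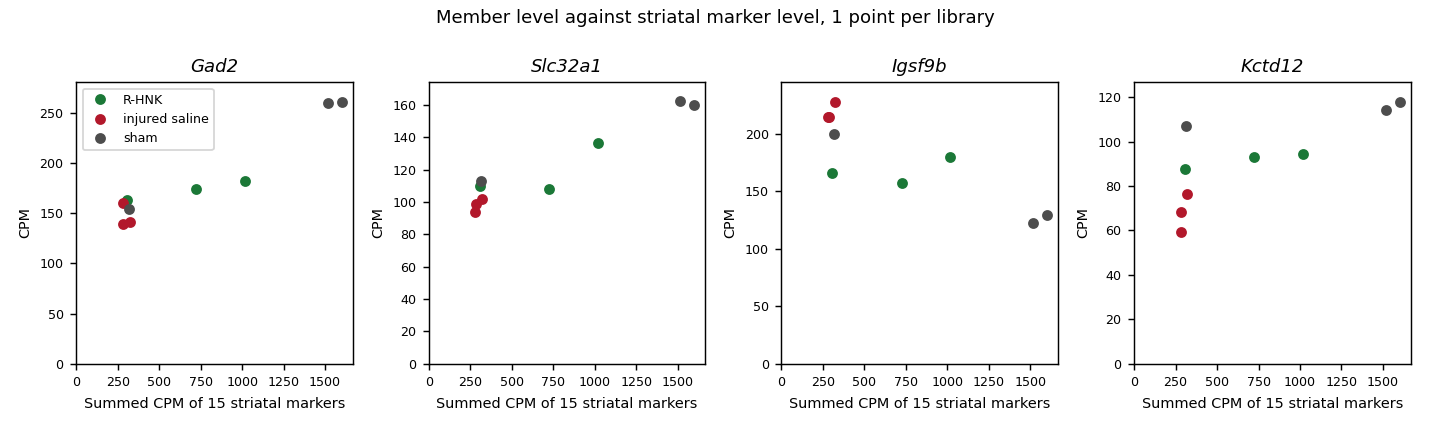
Level of Gad2, Slc32a1, Igsf9b and Kctd12 (y axis, CPM from 0) against the summed CPM of 15 striatal neuron markers (x axis), 1 point per library, coloured by group. Gad2 and Slc32a1 were highest in sham replicates 2 and 3, whose striatal sums were 1600.3 and 1516 CPM. In sham replicate 1, whose sum was 315 CPM, Kctd12 and Slc32a1 lay above every injured saline library and Gad2 lay within their range.

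Cortical interneuron markers did not stand out in the same libraries. The summed level of 18 markers was 746 to 849 CPM in R-HNK mice, 752 to 806 CPM in injured saline mice and 725 to 868 CPM in sham mice, and the groups overlapped. Of the 17 that were tested, Dlx1, Dlx5, Reln and Adarb2 fell in injured saline mice relative to sham mice, and 13 did not pass. Of all genes, 0.556% passed as lower in that comparison. The fold change was above 0 for 7 of the 17 and below 0 for 10, against 52.4% of all genes below 0. Pvalb was higher in every injured saline library than in every sham library (0.77 ± 0.24, adjusted p = 0.172). No marker was at 0 in all libraries. The summed level of 9 markers of neuroblasts and immature interneurons was 131 to 144 CPM in R-HNK mice, 77.6 to 82.0 CPM in injured saline mice and 139.6 to 185 CPM in sham mice. The part of striatal tissue in the Gad1, Gad2 and Slc32a1 values was not tested beyond the 2 settings above. The part of interneurons in them was not tested, nor was that of neuroblasts and immature interneurons.

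Of the 2 members that clear GABA, Slc6a11 fell in injured saline mice and Abat did not pass. Slc6a11, the astrocyte transporter that takes GABA up, measured 139, 145 and 154 CPM in R-HNK mice, 154, 117 and 122 CPM in injured saline mice and 186, 190.4 and 172 CPM in sham mice. Every injured saline library and every R-HNK library lay below every sham library, and injured saline replicate 1 was level with the highest R-HNK library. Its means were 131 ± 19.7 CPM in injured saline mice and 183 ± 9.50 CPM in sham mice (SD, n = 3 each), a log2 fold change of -0.48 ± 0.09 that passed (adjusted p = 0.0313). The size was about the same with the striatal covariate (-0.49, adjusted p = 0.102) as with the 4 libraries left out (-0.50, adjusted p = 0.249), but it missed the threshold in both. When each library was left out in turn, it passed in 4 of 9 cases and missed the threshold without sham replicates 2 or 3, injured saline replicates 2 or 3 or R-HNK replicate 1. R-HNK against injured saline mice gave 0.16 ± 0.09 (adjusted p = 0.719), and R-HNK against sham mice gave -0.33 ± 0.09 (adjusted p = 1). The summed level of 10 astrocyte markers was 3262 to 3664 CPM in R-HNK mice, 3215 to 3420.0 CPM in injured saline mice and 3487 to 3934 CPM in sham mice, with every sham library above every injured saline library, and its part in the Slc6a11 result was not tested.

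Abat, the mitochondrial transaminase that breaks GABA down, measured 222, 215 and 243 CPM in R-HNK mice, 192, 194 and 215 CPM in injured saline mice and 221, 285 and 276 CPM in sham mice. The injured saline libraries lay below the sham libraries, and sham replicates 2 and 3 were again the highest of the 9. The log2 fold change of injured saline against sham mice was -0.38 ± 0.09 (adjusted p = 0.0737), and -0.18 with the striatal covariate and -0.13 when the 4 libraries were left out. R-HNK against injured saline mice gave 0.18 ± 0.09 (adjusted p = 0.698), and 0.04 with the striatal covariate.

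**Figure D2:**
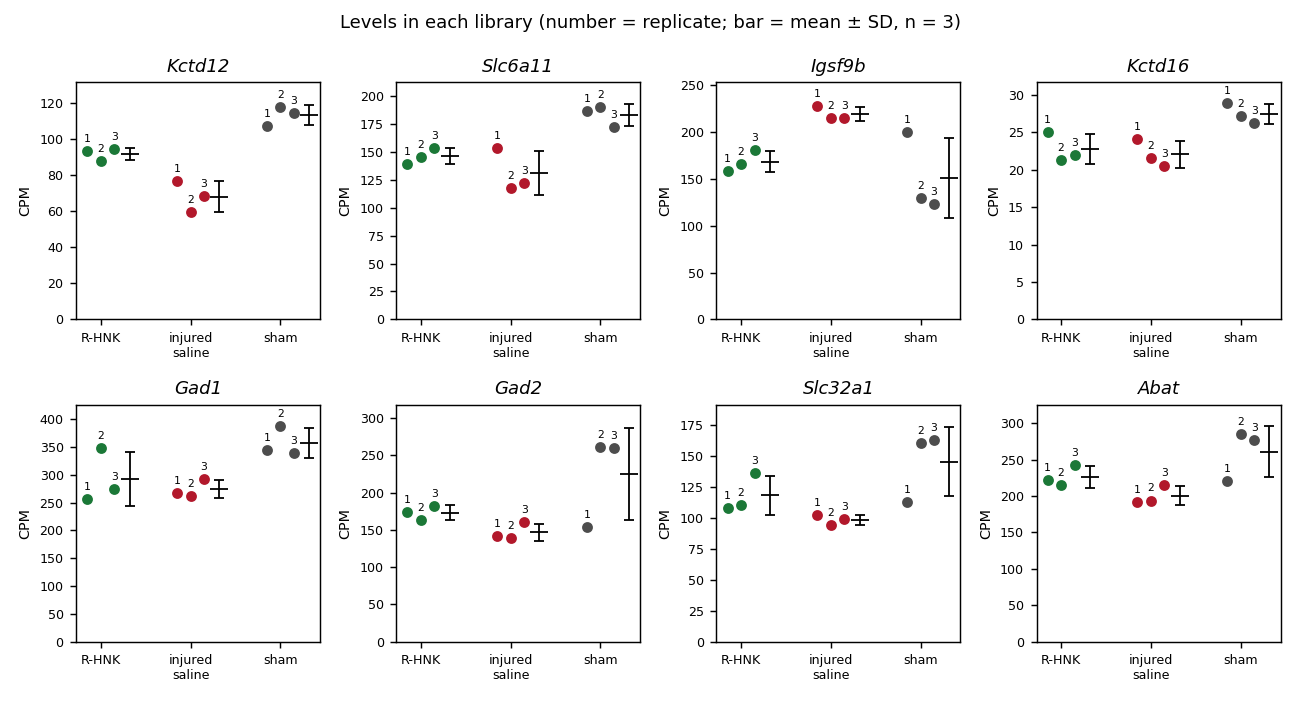
Level of 8 members in each library (y axis, CPM from 0) by group, with the replicate number above each point and the mean ± SD (n = 3) as a bar beside it. Kctd12 and Slc6a11 were lower in every injured saline library than in every sham library, and Gad2, Slc32a1 and Abat were highest in sham replicates 2 and 3.

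The GABA-A receptor subunits among the members did not pass in any comparison in edgeR over all 9 libraries. Per kilobase of exon, averaged over the 9 libraries, Gabra3 had the highest level of the 4 alpha subunit genes (36.8 CPM per kb, 29.9 to 44.3), followed by Gabra5 (22.6, 19.0 to 25.9), Gabra4 (15.02, 12.4 to 17.1) and Gabra2 (8.19, 6.90 to 9.74). None of the neighbours in that order overlapped over the 9 libraries. Of the beta subunit genes, Gabrb2 stood at 20.5 and Gabrb1 at 11.3 CPM per kb. Gabrd, whose delta subunit sits in receptors outside the synapse, stood at 20.8 CPM per kb. The gamma subunit genes Gabrg3 (3.97) and Gabrg1 (2.93) were the lowest of the 27 members on this scale, and their libraries overlapped. Per kilobase levels depend on the annotated exons of each gene, all counted here whether or not the cortex uses them.

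Of these subunits Gabra3 and Gabra2 separated injured saline from sham mice without overlap, in opposite directions. Gabra3 measured 149.8, 165 and 174 CPM in injured saline mice, against 143, 126 and 118 CPM in sham mice, a log2 fold change of 0.33 ± 0.11 (adjusted p = 0.167). Gabra2 measured 60.1, 52.7 and 56.2 CPM in injured saline mice, against 60.6, 74.4 and 72.3 CPM in sham mice, a log2 fold change of -0.29 ± 0.08 (adjusted p = 0.112). With the striatal covariate the values were 0.13 for Gabra3 and -0.20 for Gabra2, and without the 4 libraries 0.19 and -0.10 in the same order. In R-HNK mice Gabra3 measured 144, 163 and 117 CPM, which overlapped both other groups, and Gabra2 measured 61.1, 64.4 and 61.4 CPM, above every injured saline library.

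Some of the subunit genes lie in clusters. On chromosome 5 Gabrg1, Gabra2, Gabra4 and Gabrb1 follow each other between positions 70751047 and 72149037 (GRCm38), and the starts of Gabra4 and Gabrb1, which run in opposite directions, overlap by 196 bases. Gabrg1, found in glia and in some neurons, measured 20.4, 15.9 and 23.7 CPM in injured saline mice, against 18.4, 31.4 and 33.4 CPM in sham mice (-0.47 ± 0.22, adjusted p = 0.317), with sham replicates 2 and 3 highest of all libraries. Gabra4 ranged over 91.7 to 104 CPM in injured saline and 89.0 to 97.5 CPM in sham mice, and Gabrb1 over 148 to 171 and 153 to 163 CPM in the same order, and both overlapped. Gabrg1 took the opposite sign without the 4 libraries (0.12). On chromosome 7 Gabrg3 and Gabra5 are neighbours, and over the 9 libraries they ranged over 40.2 to 53.7 and 56.5 to 77.1 CPM. Gabrb2, on chromosome 11, ranged over 112 to 158 CPM. Gabrd varied little, over 56.3 to 62.9 CPM in the 9 libraries.

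**Figure D3:**
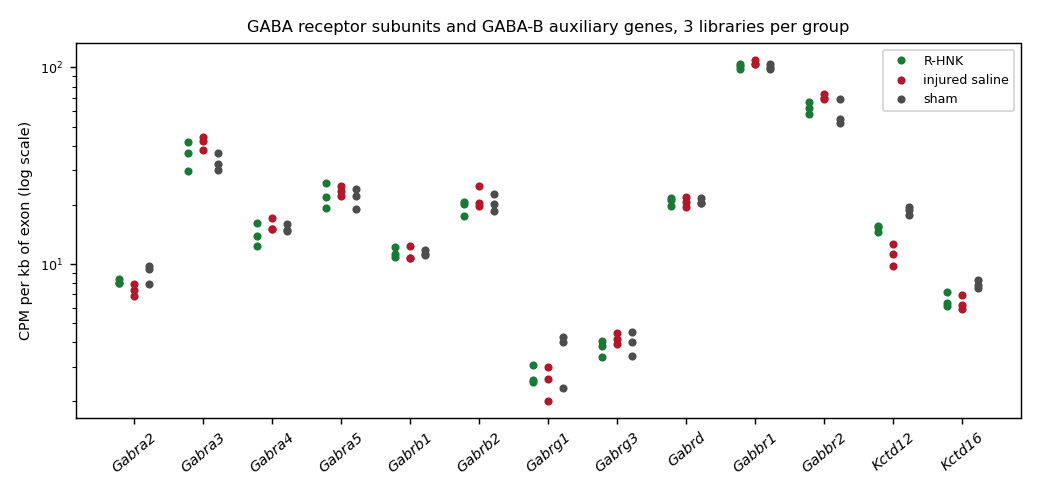
Level per kilobase of exon (y axis, log scale) of 9 GABA-A receptor subunit genes, the GABA-B receptor genes Gabbr1 and Gabbr2 and the auxiliary genes Kctd12 and Kctd16, 3 libraries per group. Gabbr1 was the highest at 103 CPM per kb on average and Gabrg1 the lowest at 2.93, and Kctd12 was lowest in the injured saline libraries.

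Of the GABA-B receptor genes and their auxiliary genes, Kctd12 fell in injured saline mice and Kctd16, Gabbr1 and Gabbr2 did not pass. Kctd12, which binds GABA-B receptors and speeds the desensitization of their response, measured 93.1, 87.7 and 94.2 CPM in R-HNK mice, 76.5, 59.3 and 68.1 CPM in injured saline mice and 107, 118 and 114 CPM in sham mice. The 3 groups did not overlap with each other, with injured saline mice lowest, R-HNK mice between and sham mice highest. Means were 91.7 ± 3.48 CPM in R-HNK mice, 68.0 ± 8.60 CPM in injured saline mice and 113 ± 5.54 CPM in sham mice (SD, n = 3 each). In injured saline relative to sham mice Kctd12 fell by 0.73 ± 0.09 on the log2 scale (adjusted p = 0.00182), the smallest p among the members. It passed whichever of the 9 libraries was left out, and it passed beside the striatal covariate (-0.65, adjusted p = 0.0116), and it missed the threshold without the 4 libraries (-0.65, adjusted p = 0.0589).

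For R-HNK against injured saline mice the Kctd12 value was 0.43 ± 0.09 and did not pass in edgeR (adjusted p = 0.153), though it passed in DESeq2 (adjusted p = 0.00337). Across the settings the adjusted p lay between 0.00337 and 0.953. For R-HNK against sham mice it was -0.30 ± 0.09 (adjusted p = 1). Markers of neuroblasts and immature interneurons, taken as a sum, were likewise lowest in injured saline mice, but their R-HNK and sham libraries overlapped. The summed level of 9 such markers was 131 to 144 CPM in R-HNK mice, 77.6 to 82.0 CPM in injured saline mice and 139.6 to 185 CPM in sham mice. Of the 9, 6 fell in injured saline relative to sham mice, where 0.556% of all genes passed as lower. In R-HNK relative to injured saline mice 4 rose, where 0.0368% of all genes passed as higher. None was at 0 in all libraries. Their part in the Kctd12 result was not tested. Kctd12 lies on chromosome 14 from 102976581 to 102982637 (GRCm38, minus strand), and the antisense gene Gm26778 covers 62.8% of its exon bases, so reads of the pair cannot be told apart unless they were counted by strand.

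Kctd16, another auxiliary subunit of the same family, measured 25.0, 21.3 and 22.01 CPM in R-HNK mice, 24.1, 21.5 and 20.5 CPM in injured saline mice and 28.9, 27.2 and 26.3 CPM in sham mice. Both the R-HNK and the injured saline libraries lay below all sham libraries. The log2 fold change was -0.32 ± 0.10 for injured saline against sham mice (adjusted p = 0.125) and -0.27 ± 0.10 for R-HNK against sham mice (adjusted p = 1), and neither passed. The injured saline value was -0.33 with the striatal covariate and -0.39 when the 4 libraries were left out, and it passed in DESeq2 (adjusted p = 0.047). Gabbr1, the subunit that binds GABA, measured 765 to 812 CPM in R-HNK mice, 806 to 844 CPM in injured saline mice and 765 to 810.0 CPM in sham mice, and its highest library was 1.10 times its lowest. Gabbr2, the subunit that couples to G proteins, measured 418, 445 and 389 CPM in R-HNK mice, 466, 461 and 487 CPM in injured saline mice and 464, 364 and 351 CPM in sham mice. Sham replicate 1 lay within the injured saline range and sham replicates 2 and 3 lay far below it. Its log2 fold change of injured saline against sham mice was 0.26 ± 0.10 (adjusted p = 0.198), 0.06 with the striatal covariate and 0.03 when the 4 libraries were left out. Without sham replicate 1 it was 0.41 and passed (adjusted p = 0.00751).

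The chloride carriers did not pass in any comparison over all 9 libraries. Slc12a5, which encodes KCC2, the neuronal carrier that moves chloride out, had the highest mean level per kilobase of all members (104 CPM per kb), overlapping that of Gabbr1 (103). It measured 747, 787 and 727 CPM in R-HNK mice, 840.1, 779 and 754 CPM in injured saline mice and 872, 732 and 704 CPM in sham mice, and the 3 groups overlapped. The log2 fold changes were 0.04 ± 0.08 for injured saline against sham, -0.07 ± 0.08 for R-HNK against injured saline and -0.03 ± 0.08 for R-HNK against sham mice, with adjusted p = 0.856, 0.874 and 1, and the first took the opposite sign with the striatal covariate (-0.11). Slc12a2, which encodes NKCC1, the carrier that moves chloride in, stood at 7.58 CPM per kb. It measured 64.0, 74.1 and 82.0 CPM in injured saline mice, against 76.8, 98.2 and 104 CPM in sham mice, and the groups overlapped. Its log2 fold change was -0.34 ± 0.12 (adjusted p = 0.197), -0.08 with the striatal covariate and -0.06 when the 4 libraries were left out. Without sham replicate 1 it was -0.45 and passed (adjusted p = 0.0362).

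The scaffold gene of the inhibitory synapse and 4 genes of its partners did not pass in any comparison. Gphn, which encodes gephyrin, the scaffold that clusters GABA-A and glycine receptors, measured 64.2, 63.1 and 53.8 CPM in R-HNK mice, 65.1, 63.1 and 68.9 CPM in injured saline mice and 63.5, 65.9 and 62.5 CPM in sham mice. The groups overlapped, and the log2 fold changes were 0.04 ± 0.08 for injured saline against sham, -0.12 ± 0.08 for R-HNK against injured saline and -0.08 ± 0.08 for R-HNK against sham mice, with adjusted p = 0.854, 0.734 and 1. Nlgn2, the adhesion protein neuroligin 2 of inhibitory synapses, ranged over 346 to 418 CPM in the 9 libraries. Lhfpl4, an auxiliary protein that ties GABA-A receptors to neuroligin 2, ranged over 135 to 166 CPM, and Gabarap, which binds gamma subunits and acts in autophagy, over 91.6 to 106 CPM. Iqsec3, an exchange factor that binds gephyrin, ranged over 189 to 247 CPM. In R-HNK mice Gabarap lay above all sham libraries at 101 to 104 CPM, against 91.6 to 97.7 CPM in sham mice.

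The adhesion genes Slitrk3 and Igsf9b did not pass, and in injured saline against sham mice their fold changes had opposite signs. Slitrk3, which builds inhibitory synapses by binding across the cleft, measured 62.5, 68.5 and 58.9 CPM in R-HNK mice, 60.2, 54.8 and 57.6 CPM in injured saline mice and 67.8, 70.8 and 66.3 CPM in sham mice. The injured saline libraries lay below the sham libraries, with a log2 fold change of -0.25 ± 0.07 (adjusted p = 0.123), and R-HNK against injured saline mice gave 0.14 ± 0.07 (adjusted p = 0.698). The first value was -0.30 with the striatal covariate and -0.23 when the 4 libraries were left out, and it passed in DESeq2 (adjusted p = 0.0497). Igsf9b, an adhesion protein of inhibitory synapses that associates with neuroligin 2, measured 158, 166 and 180.2 CPM in R-HNK mice, 228, 215 and 215 CPM in injured saline mice and 199.9, 129 and 123 CPM in sham mice. All injured saline libraries lay above all others, and sham replicate 1 lay above the R-HNK libraries while sham replicates 2 and 3 lay below them. The log2 fold change of injured saline against sham mice was 0.54 ± 0.16 (adjusted p = 0.143), 0.30 with the striatal covariate and 0.14 when the 4 libraries were left out. Without sham replicate 1 it was 0.81 and passed (adjusted p = 0.000235). R-HNK against injured saline mice gave -0.38 ± 0.16 (adjusted p = 0.643), and -0.18 with the striatal covariate, and it passed without sham replicate 1 (adjusted p = 0.0365). The summed level of 10 markers of cortical excitatory neurons was 6719 to 7242 CPM in R-HNK mice, 7358 to 8048 CPM in injured saline mice and 5851 to 7630.2 CPM in sham mice. It was 7630.2 CPM in sham replicate 1 and 6167 and 5851 CPM in sham replicates 2 and 3, and its part in the Igsf9b values was not tested.

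Across the whole group, injured saline against sham mice gave 2 members lower, none higher and 25 that did not pass, against the 1.07% of all genes given above. Unadjusted p was under 0.05 for 13 members, against 16.6% of all genes. Without overlap between the groups, 8 members were lower and 2 higher, where 10.9% of all genes were lower and 10.9% higher. The fold change was below 0 for 15 of the 27, against 52.4% of all genes, with a median of -0.01 for the members and -0.02 for all genes. The count of members that passed was 10 in DESeq2, with Igsf9b higher and 9 lower (Gad1, Gad2, Slc32a1, Slc6a11, Abat, Gabra2, Slitrk3, Kctd12 and Kctd16), where the count over all genes was 1185 against 233 in edgeR. It was also 10 without sham replicate 1, the sham library low in striatal markers, where the count over all genes was 1170. These 10 were Gabbr2 and Igsf9b, higher, and Gad2, Slc32a1, Slc6a11, Abat, Gabra2, Gabrg1, Slc12a2 and Kctd12, lower. It was 1 without sham replicates 2 or 3, injured saline replicates 2 or 3 or R-HNK replicate 1. It was 1 with the striatal covariate and 0 when the 4 libraries were left out.

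R-HNK against injured saline mice gave no member that passed in edgeR, where 0.119% of all genes passed, 0.0368% higher and 0.0827% lower, and 1, Kctd12, in DESeq2. Unadjusted p was under 0.05 for 2 members, Kctd12 and Igsf9b, against 7.47% of all genes. Without overlap, 4 members were higher, against 7.15% of all genes, and they were Kctd12, Slc32a1, Gad2 and Gabra2. Igsf9b and Gabbr2 were lower without overlap, against 6.59% of all genes. The fold change was below 0 for 12 of the 27, against 48.6% of all genes, with a median of 0.02 for the members and 0.01 for all genes. This comparison and the previous both use the injured saline libraries, so opposite signs in them are not independent of each other.

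R-HNK against sham mice gave no member that passed in edgeR or in DESeq2, where 0.00459% of all genes passed in edgeR. Unadjusted p was under 0.05 for 5 members, Kctd12, Slc6a11, Kctd16, Gad1 and Slc32a1, against 3.53% of all genes, and all 5 had negative fold changes. Kctd12, Slc6a11 and Kctd16 were lower without overlap, against 4.42% of all genes, and Gabarap was higher, against 4.43%. The fold change was below 0 for 20 of the 27, against 51.7% of all genes, with a median of -0.08 for the members and -0.01 for all genes.

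**Figure D4:**
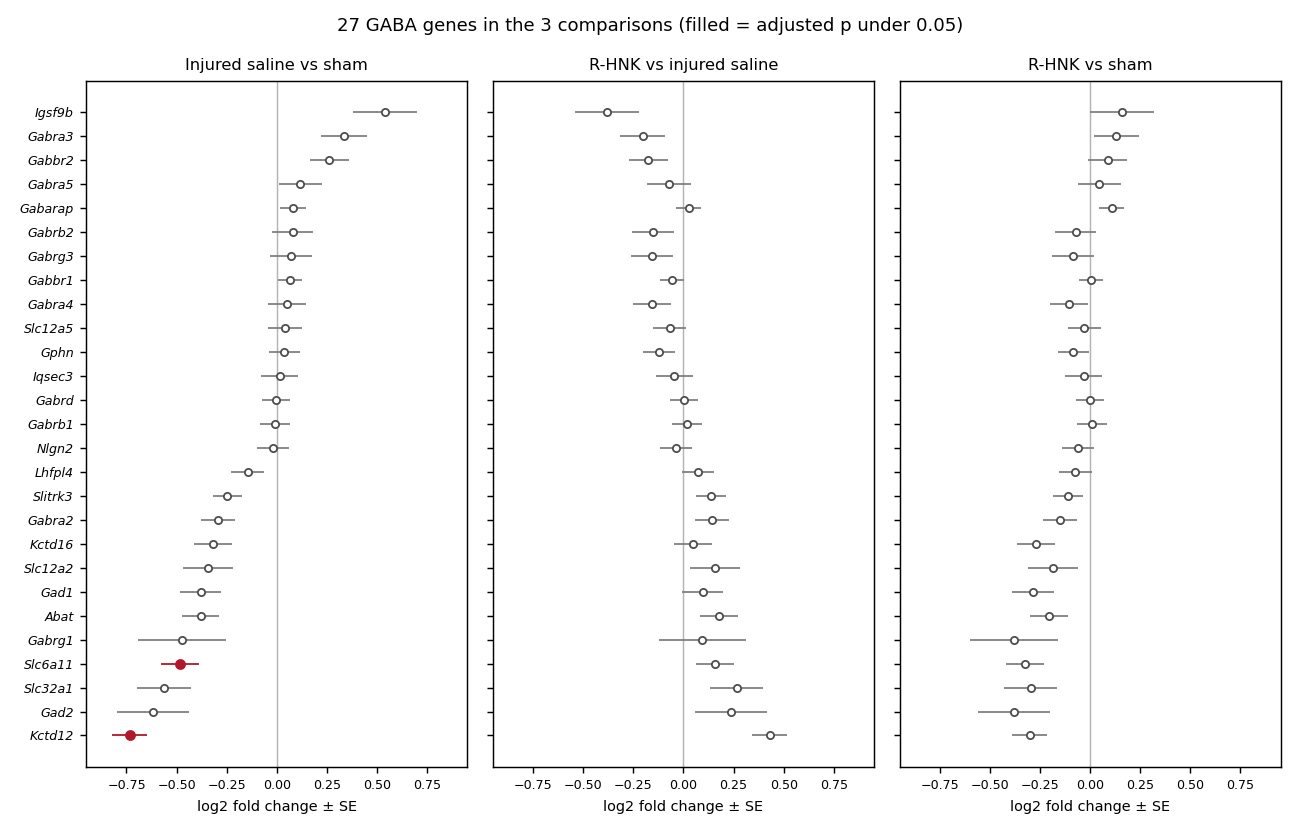
Log2 fold change ± SE (x axis) of each of the 27 members in the 3 comparisons, ordered from the highest to the lowest value of injured saline against sham mice. Filled points passed at an adjusted p under 0.05, which were Kctd12 (-0.73) and Slc6a11 (-0.48) in injured saline against sham mice, and none in the other two comparisons.

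Other genes of the pathway were read from 4 lists of 48 genes in all, of which 45 passed the filter on low counts. The lists held other receptor subunits, other transport and supply genes, other anchoring and trafficking genes, and relatives and kinases of the chloride carriers. None passed in edgeR in any comparison. For injured saline against sham mice unadjusted p was under 0.05 for 11 of the 45, against 16.6% of all genes. In DESeq2 3 of the 45 passed, against 1185 of all 21765 genes. For R-HNK against injured saline mice the counts were 5 and 0, against 7.47% and 140 of all genes, and for R-HNK against sham mice 0 and 0, against 3.53% and 10. Hap1, a trafficking adaptor that carries GABA-A receptors to the membrane, was nearest to the threshold. It measured 172, 129 and 157 CPM in R-HNK mice, 128, 116 and 102 CPM in injured saline mice and 166, 153 and 196 CPM in sham mice. All injured saline libraries lay below all others, with a log2 fold change of -0.57 ± 0.12 against sham mice (adjusted p = 0.0513), and R-HNK against injured saline mice gave 0.40 ± 0.12 (adjusted p = 0.468).

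Mdga1, which binds neuroligin 2 and limits inhibitory synapse formation, measured 34.3, 17.5 and 21.7 CPM in injured saline mice, against 41.1, 38.6 and 34.7 CPM in sham mice (-0.64 ± 0.21, adjusted p = 0.174), with no overlap. Slc6a13, the GABA transporter GAT2, measured 2.59, 2.37 and 1.46 CPM in injured saline mice, against 6.70, 2.40 and 4.17 CPM in sham mice (-1.05 ± 0.33, adjusted p = 0.147), and the groups overlapped. Its fold change was -1.64 without the 4 libraries and -0.61 without sham replicate 1. Hap1, Mdga1 and Slc6a13 were the 3 that passed in DESeq2 (adjusted p = 0.000538, 0.0157 and 0.0378). Leaving out 1 library, Hap1 also passed without sham replicate 1 or R-HNK replicate 2, and Mdga1 without injured saline replicate 1 (-0.94). Got1, an aminotransferase of glutamate supply, measured 352, 365 and 385 CPM in injured saline mice, against 345, 327 and 318 CPM in sham mice (0.16 ± 0.07, adjusted p = 0.255), with no overlap.

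For R-HNK against injured saline mice, Slc6a12, the betaine and GABA transporter BGT1, was low throughout, at 1.19, 0.650 and 0.937 CPM in R-HNK mice and 0.243, 0.433 and 0.295 CPM in injured saline mice (1.51 ± 0.45, adjusted p = 0.43), with no overlap. In sham mice Slc6a12 measured 0.991, 0.383 and 0.637 CPM, which overlapped both other groups. Slc38a2, a glutamine carrier, measured 116, 122 and 109 CPM in R-HNK mice and 122, 149.7 and 142 CPM in injured saline mice (-0.26 ± 0.08, adjusted p = 0.464), with no overlap between R-HNK and injured saline mice. Slc12a7, a potassium and chloride carrier, measured 4.40, 2.74 and 6.03 CPM in R-HNK mice, with replicate 2 within the injured saline range of 2.70, 2.75 and 2.77 CPM (0.68 ± 0.26, adjusted p = 0.613). Without the 4 libraries the fold change was -0.0036 for Slc12a7, 0.99 for Slc6a12 and 0.16 for Hap1.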

How the data were processed

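RNA of 9 prelimbic cortex samples was isolated in TRIzol, cleaned on columns and sequenced on the NovaSeq system, per the labels' protocols. HISAT2 2.0.5, featureCounts 1.5.0-p3 and mm10 are named in the submitters' processing notes, while StringTie stands in the name of the deposited table, so its values are treated as estimated counts (expected counts): the deposited values are whole numbers per gene symbol, with totals that differ between libraries and no scaling found in them. The sources used here do not say whether counting used strand.

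The low-count filter was filterByExpr with the 3 groups, and it kept 21765 genes with 99.96% of the counts. Scaling was by TMM (factors 0.979 to 1.03). The model was that of edgeR 4.0.16 (R 4.3.3), robust quasi-likelihood, 1 mean per group over all 9 libraries, with Benjamini-Hochberg adjustment over all genes at 0.05. SE was worked back from the test statistic. With 3 mice against 3 an exact permutation test could not go below p = 0.1, so the tests borrow the spread of other genes. Other settings were relative log expression scaling, no filter, DESeq2 1.42.0, the replicate block, the striatal score (mean log2 CPM of 15 markers), omitting the 4 libraries high in striatal markers, and leaving out each library. Exon lengths, positions and overlaps came from GENCODE M21 (GRCm38), promoters from RefSeq. The analysis was tested on simulated counts. Over the 3 comparisons, 43.3% to 55.2% of genes changed 1.5-fold were recovered, and 95.5% to 97.0% of those changed 4-fold. Of the genes called there, 5.73% to 7.69% were false. The members, lists and settings were chosen with earlier results of these data known. Values in every library are given for members that passed, for the 5 smallest p per comparison, and for Gad1, Gad2, Slc32a1, Gphn and Slc12a5. Gabra2, Gabra3, Gabrg1, Gabbr2 and Slc12a2, also given by library, were chosen after their values were seen. From the other pathway lists, up to 2 genes per list and comparison with the smallest p are named. Libraries of a group differed by more than sampling noise in every pair. Some genes of the pathway are not reported here.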

Additional observations from a re-analysis of the deposited data

How the results depend on the processing

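Over 81 fold changes of members and 15 other settings each, 1215 values in all, 1098 kept both their sign and their side of the threshold, 9 lost the call, 21 gained it and 87 changed sign. None of the sign changes was in Kctd12 or Slc6a11 in injured saline against sham mice, the 2 fold changes that passed. Members that passed in injured saline against sham mice (2) numbered 10 in DESeq2, 1 with the replicate block, 1 with the striatal covariate, 0 without the 4 libraries and 1 to 10 when 1 library was left out. In R-HNK against injured saline mice (0) they numbered 1 in DESeq2 and 0 to 1 when 1 library was left out, and in R-HNK against sham mice (0) 0 to 1 when 1 library was left out, where Gad2 passed without sham replicate 1. Genes that passed overall in injured saline against sham mice (233) numbered 370 with no filter, 1185 in DESeq2, 95 with the striatal covariate, 86 without the 4 libraries and 60 to 1170 when 1 library was left out, most without sham replicate 1. In R-HNK against injured saline mice (26) they numbered 140 in DESeq2, 16 with the replicate block and 7 to 56 when 1 library was left out. In R-HNK against sham mice (1) they numbered 10 in DESeq2, 2 with the replicate block, 25 without the 4 libraries and 1 to 11 when 1 library was left out.

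The cause of these changes was not tested. Fold changes given in the text that changed sign were those of Slc12a5 (-0.107 with the striatal covariate, -0.134 without the 4 libraries, -0.017 to 0.15 when 1 library was left out) and Gabrg1 (0.121 without the 4 libraries) in injured saline against sham mice. In R-HNK against injured saline mice they were Gad2 (-0.00929) and Slc12a5 (0.0366) with the striatal covariate, Slc12a7 (-0.0036) without the 4 libraries, and Gad1 (-0.046 to 0.186) when 1 library was left out. In R-HNK against sham mice they were Gad1 (0.0147) and Gad2 (0.0833) without the 4 libraries, and Slc12a5 (-0.0846 to 0.0788) when 1 library was left out. Same-numbered libraries did not deviate together (correlations of their deviations from the group means -0.17 to 0.23), not every library correlated best with its own number, and replicate numbers are not treated as pairs. With the replicate block the call changed for Slc6a11 in injured saline against sham mice (adjusted p = 0.0584) and for no other member in any comparison. The members' counts summed to at least 12684 over the 9 libraries.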
